A study of Mus musculus with 13 samples.

Results

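Immunoglobulin constant genes were examined in RNA-seq libraries of mouse bone marrow cells sorted as mesenchymal stromal cells (MSCs), the connective-tissue cells that support blood formation. The genes were fixed by symbol as 10 heavy and light chain constant genes: Igkc, Ighm, Ighd, Ighg1, Ighg2b, Ighg2c, Ighg3, Igha, Iglc1 and Iglc2. Of these, 7 were analysed, out of 33432 named genes of the expression table, and Ighd, Igha and Iglc1 were not analysed here. The table held 109 immunoglobulin genes and gene segments in all. The genes were chosen with their high level in the pre-leukemic libraries known, so every value set against that group describes the choice and carries no test. The test left to these genes is between recovered and healthy libraries, and the spread within the pre-leukemic group.

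The 13 libraries came from C57BL/6 mice and fell into 4 recovered, 6 pre-leukemic and 3 healthy libraries. All cells were sorted from the nucleated cells of marrow and of compact bone together, and polyadenylated RNA was sequenced. The protocol names MSC-treated pre-leukemic mice, pre-leukemic mice and control mice as sources. That the recovered libraries are those of the MSC-treated mice follows from the number of groups and is stated by no label. The sources used here do not give the lesion behind the pre-leukemia, the age of the mice, the surface markers of the sort or whether each library is from its own mouse. Every p-value therefore refers to the spread among these libraries, which may be technical.

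An antibody is built from a pair of identical heavy chains and a pair of identical light chains. Each chain joins a variable part, assembled from V, D and J segments in the developing B cell, to a constant part encoded by the genes described here. A B cell first expresses Ighm, which encodes the heavy chain of IgM. After activation, class switch recombination deletes the DNA between the variable part and a downstream constant gene, so that the same variable part is joined to Ighg3, Ighg1, Ighg2b, Ighg2c, Ighe or Igha. Light chains are kappa, with the single constant gene Igkc, or lambda, with Iglc1, Iglc2 and Iglc3, and kappa predominates in laboratory mice. Plasma cells, the antibody-secreting end stage of B cells, reside in bone marrow and devote much of their messenger RNA to these genes. Stromal cells are not a known source of antibody.

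On GRCm38 (mm10), in the GENCODE M21 annotation, the heavy chain genes lie on the minus strand of chromosome 12. In the direction of transcription they come as Ighm (chr12:113418558-113422730), Ighd (chr12:113406604-113416324), Ighg3 (chr12:113356224-113361232), Ighg1 (chr12:113325240-113330523), Ighg2b (chr12:113302965-113307933), Ighg2c (chr12:113285325-113288932), Ighe (chr12:113269260-113273248) and Igha (chr12:113254830-113260236). Igkc lies on the plus strand of chromosome 6 (chr6:70726435-70726966). Iglc2 lies on the minus strand of chromosome 16 (chr16:19198396-19200351).

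The 4 IgG genes differ most plainly in the hinge, the short exon that links both arms of the heavy chain to its stem and carries the cysteines that bind heavy chains to each other. Their hinge exons are shown because the isotype results turn on telling these 4 genes apart. Sequences run 5′ to 3′ along the minus strand of GRCm38, from the GENCODE M21 transcripts, and capitals mark in-frame cysteine codons.
Ighg3 hinge exon, chr12:113360529-113360576: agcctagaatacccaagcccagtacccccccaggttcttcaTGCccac
Ighg1 hinge exon, chr12:113329844-113329882: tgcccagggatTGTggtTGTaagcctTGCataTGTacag
Ighg2b hinge exon, chr12:113307261-113307326: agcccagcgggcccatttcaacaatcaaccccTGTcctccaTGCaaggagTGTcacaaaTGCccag
Ighg2c hinge exon, chr12:113288263-113288325: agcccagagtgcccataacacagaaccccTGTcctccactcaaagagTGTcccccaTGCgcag

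The exons were 48 bases long in Ighg3, 39 in Ighg1, 66 in Ighg2b and 63 in Ighg2c, with 1, 4, 4 and 3 cysteine codons in that order. Over the whole coding sequence Ighg2b and Ighg2c were 86.3% identical, the closest pair of the 4, and the other 5 pairs of IgG genes were 76.1 to 78.5% identical. Of all 50-base windows, 2.66% of those in Ighg2b also occurred in Ighg2c, and 5.49% of those in Ighg2c also occurred in Ighg2b. Reads within such windows cannot be assigned to 1 gene, and the sources used here do not say how the authors' counting treated them.

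For the lambda genes 60 bases at the start of the constant exon are shown, since Iglc2 carries the difference between recovered and healthy libraries and has a near-identical copy. Iglc2 is shown without its first coding base, so that the copies line up without a gap. Capitals mark bases unlike Iglc2.
Iglc2, chr16:19198793-19198852: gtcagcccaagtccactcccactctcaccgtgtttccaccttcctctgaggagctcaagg
Iglc3, chr16:19065622-19065681: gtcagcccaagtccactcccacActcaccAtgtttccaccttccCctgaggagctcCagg
Iglc1, chr16:19062012-19062071: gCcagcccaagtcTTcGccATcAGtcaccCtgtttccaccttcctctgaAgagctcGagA

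Of these 60 bases 4 differed in Iglc3 and 12 in Iglc1. The full coding sequences of Iglc2 and Iglc3 were 96.5% identical, and 7.65% of the 50-base windows of Iglc2 occurred in Iglc3. Iglc3 was not analysed here, and the Iglc2 level may hold reads of both and is uncertain to that extent. Igll1, the lambda-like constant gene of the surrogate light chain, was 71.9% identical to Iglc2 and shared 0 windows with it.

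All levels are FPKM, fragments scaled by transcript length and by sequencing depth, so levels of different genes are set side by side per length. By the smallest steps between values, 1 read on 1 kb corresponded to 0.342 to 0.631 FPKM in recovered, 0.162 to 0.242 in pre-leukemic and 0.311 to 0.376 in healthy libraries. Healthy 1 and 3 were far closer than any of the 23 other pairs of 1 group, with a chi-square per gene of 1.21 against 11.1 to 43.0. They differed slightly more than repeat counts of 1 library would (chi-square test of estimated reads over 388 genes, p = 0.00252), though those reads are themselves approximate. They were averaged and counted as 1 sample, which left 2 healthy samples, and values with both kept separate are given where they matter. Recovered 3 stood apart from the other recovered libraries in pre-B cell genes, given below. The 10 stromal markers (Pdgfra, Pdgfrb, Lepr, Cxcl12, Prrx1, Col1a1, Col1a2, Vcam1, Eng and Nt5e) summed to 1672 to 2423 FPKM in recovered, 57.7 to 197 in pre-leukemic and 3068 to 3615 in healthy libraries. Col1a1, Col1a2 and Cxcl12 carried most of the recovered and healthy sums. In pre-leukemic 2, which had the lowest sum, Nt5e at 27.7 FPKM was the largest of the 10 markers. Of the 10 markers, 8 were lower in every pre-leukemic library than in every recovered library, and Eng and Nt5e overlapped. The share of all genes with that pattern was not counted, so nothing is read from the 8. Eng stood at 2.76 to 11.1, 2.22 to 7.26 and 3.37 to 13.5 FPKM in recovered, pre-leukemic and healthy libraries, and Nt5e at 1.39 to 26.9, 11.3 to 27.7 and 59.3 to 75.9 FPKM. The 5 pan-leukocyte markers (Ptprc, Laptm5, Coro1a, Cd52 and Itgb2) summed to 34.8 to 161, 1690 to 2228 and 70.0 to 80.6 FPKM in recovered, pre-leukemic and healthy libraries. Fewer cells of a type and less RNA per cell cannot be told apart in such bulk samples.

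The 7 constant genes took 0.00555 to 0.132% of the summed FPKM in recovered libraries, 9.23 to 64.6% in pre-leukemic libraries and 0.0179 to 0.0301% in healthy libraries. The pre-leukemic range rests on the Igkc values of 0 described below: pre-leukemic 1 and 2 were at 9.23 and 12.9%, and the other 4 were at 54.1 to 64.6%. The 6 genes other than Igkc took 1.66 to 12.9% of the same sums in the pre-leukemic libraries. Those sums still hold Igkc where it was read, so the libraries are not ranked by this share. All immunoglobulin genes and segments together took 0.0059 to 0.132%, 49.7 to 78.2% and 0.0187 to 0.0301% in the recovered, pre-leukemic and healthy libraries. Here too the pre-leukemic range rests on the Igkc values of 0: pre-leukemic 1 and 2 were at 49.7 and 51.0%, and the other 4 were at 68.3 to 78.2%. For 6 of the 7 genes every pre-leukemic library lay above every recovered and every healthy library, and Igkc was the exception. Over all 13118 genes tested, those that reached 1 FPKM in 3 or more libraries, 23.7% had every pre-leukemic library above every healthy one, and 16.5% had every recovered library below every pre-leukemic one. The genes were chosen by this contrast, so nothing is read from the count.

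**Figure D1:**
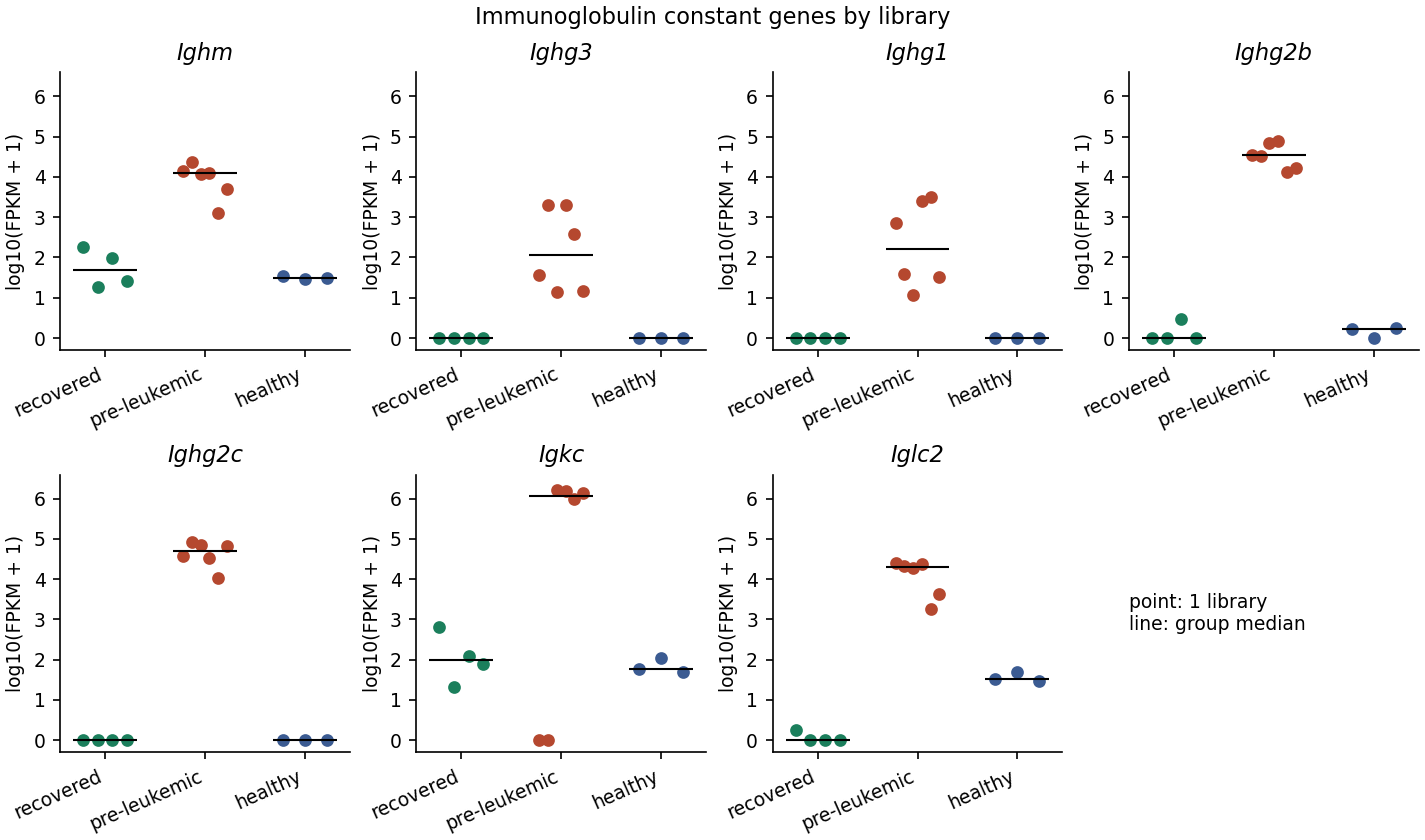
FPKM of the 7 constant genes on a log10(FPKM + 1) axis, 1 point per library (4 recovered, 6 pre-leukemic, 3 healthy) with a line at the group median. Every pre-leukemic point lies above all other points except for Igkc, which was listed at 0 in 2 of the 6 pre-leukemic libraries.

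Among heavy chains, Ighm was the one read in every library. It stood at 185, 18.0, 94.7 and 25 FPKM in recovered 1 to 4, at 13934, 23278, 11979, 12548, 1273 and 4953 FPKM in pre-leukemic 1 to 6, and at 34.0, 28.1 and 29.5 FPKM in healthy 1 to 3. The lowest pre-leukemic library, pre-leukemic 5, was above the highest recovered library. The recovered libraries spread 10.3-fold from lowest to highest and the healthy libraries 1.21-fold, and the recovered values lay on both sides of the healthy ones.

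Ighg2c is the form of the IgG2a class that C57BL/6 mice carry. Its level was 36958, 82726, 69952, 34426, 10751 and 65730 FPKM in pre-leukemic 1 to 6, and it was listed at 0 in all 4 recovered and all 3 healthy libraries. Ighg2b stood at 35713, 33522, 71179, 78924, 13088 and 17130 FPKM in pre-leukemic 1 to 6. In recovered libraries Ighg2b was at 2.03 FPKM in recovered 3 and at 0 in the others, and in healthy 1 to 3 it was at 0.684, 0 and 0.76 FPKM. For Ighg2b the value that 3 reads would give was 0.383 to 0.707 FPKM in recovered and 0.348 to 0.422 FPKM in healthy libraries. Both genes were therefore high in each pre-leukemic library and at most at a few reads elsewhere, with pre-leukemic 5 lowest for each.

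Ighg1 and Ighg3, the other IgG genes, were lower and far more uneven. Ighg1 was at 699, 38.4, 10.4, 2577, 3180 and 31.1 FPKM in pre-leukemic 1 to 6, a 307-fold range. Ighg3 was at 36.4, 2054, 13.1, 2043, 372 and 13.7 FPKM in the same libraries, a 156-fold range. Both were listed at 0 in all recovered and healthy libraries. The libraries high in one were not simply those high in the other: pre-leukemic 2 was among the highest for Ighg3 and low for Ighg1, while pre-leukemic 5 was highest for Ighg1. Ighe, the IgE gene, was at 0.668 FPKM in pre-leukemic 1 and at 0 in the other 12 libraries.

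As shares of the summed heavy chain constant FPKM, IgG genes made up 90.0 ± 5.13% in pre-leukemic libraries (SD, n = 6), with a range of 83.6 to 95.6%. Ighg2c held 47.5 ± 17.0%, Ighg2b 39.4 ± 15.4%, Ighm 9.98 ± 5.13%, Ighg1 2.32 ± 4.36% and Ighg3 0.73 ± 0.78%. Ighg2b and Ighg2c together held 87.0 ± 5.17%. The order of these 2 depends on the length each gene is given, since the annotated exons sum to 2678 bases for Ighg2b and 1326 for Ighg2c. As shares of estimated fragments, FPKM times exon length, Ighg2b held 52.6% and Ighg2c 33.8%. In recovered and healthy libraries the shares ran the other way, with Ighm at 97.9 to 100% of the sum in recovered and 97.5 to 100% in healthy libraries. These shares leave out Ighd and Igha, which were not analysed here.

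The order of the 2 leading genes in FPKM differed between libraries. Ighg2c led in pre-leukemic 1, 2 and 6, with 42.3, 58.4 and 74.8% against 40.9, 23.7 and 19.5% for Ighg2b. Ighg2b led in pre-leukemic 3, 4 and 5, with 46.5, 60.5 and 45.7% against 45.7, 26.4 and 37.5% for Ighg2c. In estimated reads Ighg2b led in 4 of the 6, pre-leukemic 1 among them. Ighm was the third gene by FPKM in 5 libraries. In pre-leukemic 5 Ighg1 took that place, with 11.1% against 4.44% for Ighm, and without this library the mean share of Ighg1 was 0.569%.

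**Figure D2:**
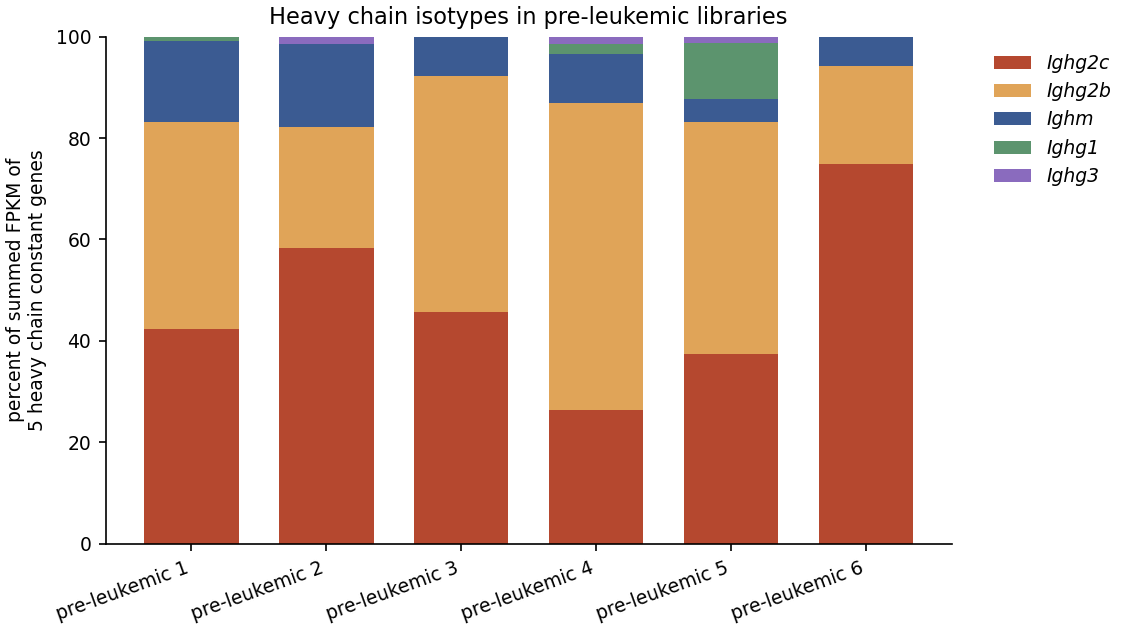
Stacked bars show the percent of summed FPKM of 5 heavy chain constant genes held by each gene in each of the 6 pre-leukemic libraries. Ighg2c and Ighg2b fill at least 82.1% of every bar and change places as the larger, and Ighg1 is visible mainly in pre-leukemic 5, where it holds 11.1%.

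Ordered by mean level in the pre-leukemic libraries, Ighg2c (50090 ± 27091 FPKM) came before Ighg2b (41593 ± 27494), Iglc2 (15790 ± 10197), Ighm (11328 ± 7658), Ighg1 (1089 ± 1423) and Ighg3 (755 ± 1011; SD, n = 6 each). Within libraries the log2 ratio of Ighg2c over Ighg2b was 0.30 ± 1.14, so these neighbours did not differ beyond their spread, and Ighg2c was higher in 3 of 6. Ighg2b over Iglc2 was 1.61 ± 0.88 and Ighg2b was higher in 6 of 6. Iglc2 over Ighm was 0.43 ± 0.51, higher in 4 of 6. Ighm over Ighg1 was 5.34 ± 4.41, higher in 5 of 6, and Ighg1 over Ighg3 was 0.47 ± 3.49, higher in 4 of 6. Of these neighbours, Ighg2b with Iglc2 and Ighm with Ighg1 differed by more than 1 SD.

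The kappa constant gene Igkc was the most abundant transcript where it was read in the pre-leukemic group, and it was listed at 0 in the other libraries of that group. It stood at 1668370, 1519030, 966145 and 1356880 FPKM in pre-leukemic 3 to 6, which is 58.6, 50.9, 52.4 and 56.2% of the summed FPKM of those libraries. In pre-leukemic 1 and 2 it was listed at 0. Igkc stood at 636, 20.4, 126 and 78.2 FPKM in recovered 1 to 4, and at 58.0, 110.2 and 48.0 FPKM in healthy 1 to 3. The recovered range thus enclosed the healthy one, and neither group had a library at 0.

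Other kappa genes were present in the libraries where Igkc was listed at 0. The sum over 59 kappa variable genes was 303147, 350328, 306360, 320651, 187415 and 241228 FPKM in pre-leukemic 1 to 6. The sum over 5 kappa joining genes was 130243, 67618, 39095, 277474, 31697 and 14227 FPKM in the same libraries. Pre-leukemic 1 and 2 lay within the range of the other 4 libraries for the joining genes, and for the variable genes pre-leukemic 2 was the highest of the 6. A kappa transcript holds a variable, a joining and the constant part, so an Igkc level of 0 goes against the other kappa genes of the same library. An exact 0 in such a table can be an estimate that failed, and whether it was one was not tested. Mean levels and changes of Igkc that include these libraries are not given.

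In recovered and healthy libraries Igkc was read almost without variable genes. The kappa variable sum was 0, 0, 12.8 and 1.45 FPKM in recovered 1 to 4 and 1.44, 0 and 0 FPKM in healthy 1 to 3, and the kappa joining sum was 0 in each. Igkc was 1.13 to 3.43 times the summed heavy chain constant FPKM in recovered and 1.58 to 3.93 times in healthy libraries, while the 4 pre-leukemic libraries with a value had ratios of 10.9, 11.6, 33.7 and 15.4.

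Iglc2, a lambda constant gene, was at 25772, 20725, 18748, 23444, 1869 and 4180 FPKM in pre-leukemic 1 to 6. Pre-leukemic 5 and 6 were low and the other 4 lay close together. The lambda variable sum did not follow that order, at 32702, 31384, 16907, 33647, 26111 and 53101 FPKM in pre-leukemic 1 to 6. Igkc over Iglc2 was 89.0, 64.8, 517 and 325 in pre-leukemic 3 to 6, a mean of 249 ± 214 (SD, n = 4), or 159 without pre-leukemic 5. With the summed levels of these 4 libraries the ratio was 114. In healthy 1 to 3 the ratio was 1.76, 2.21 and 1.64. Recovered 1, with a ratio of 802, rests on an Iglc2 level of 0.793 FPKM, or about 1 read, and the other recovered libraries have no ratio because Iglc2 was listed at 0. Iglc1 and Iglc3 were not analysed here, so these ratios do not set all kappa against all lambda. The kappa variable sums were 306360, 320651, 187415 and 241228 FPKM in pre-leukemic 3 to 6. In proportion they exceeded the lambda variable sums by far less than Igkc exceeded Iglc2.

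**Figure D3:**
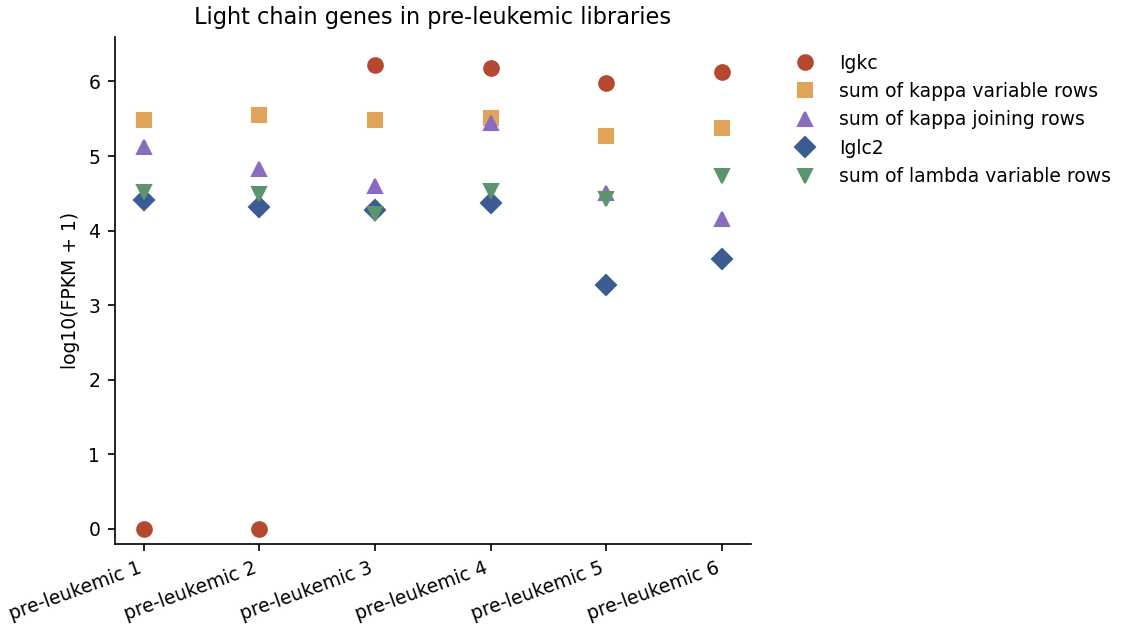
Light chain genes in the 6 pre-leukemic libraries on a log10(FPKM + 1) axis, with Igkc, Iglc2 and the sums over kappa variable, kappa joining and lambda variable genes as separate points. Igkc is at 0 in pre-leukemic 1 and 2, where the kappa variable sums are 303147 and 350328 FPKM, and Iglc2 is lowest in pre-leukemic 5 at 1869 FPKM.

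Most of the constant genes varied more between pre-leukemic libraries than most genes did. On log2(FPKM + 1) the SD over the 6 libraries was 3.53 for Ighg1, 3.38 for Ighg3, 1.59 for Iglc2, 1.5 for Ighm, 1.09 for Ighg2c and 1.05 for Ighg2b. Among 7887 genes with a mean of at least 5 FPKM there the median SD was 0.49, and these 6 genes lay between the percentiles 89.7 and 99.2. Igkc lay at the top through its 2 values of 0. Igj, which encodes the joining chain of IgM and IgA polymers, had an SD of 0.22 at percentile 7.99, with 44478 to 69250 FPKM in pre-leukemic libraries, against 13.9 FPKM in recovered 1, 0 in the other recovered libraries and at most 0.263 FPKM in healthy libraries.

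**Figure D4:**
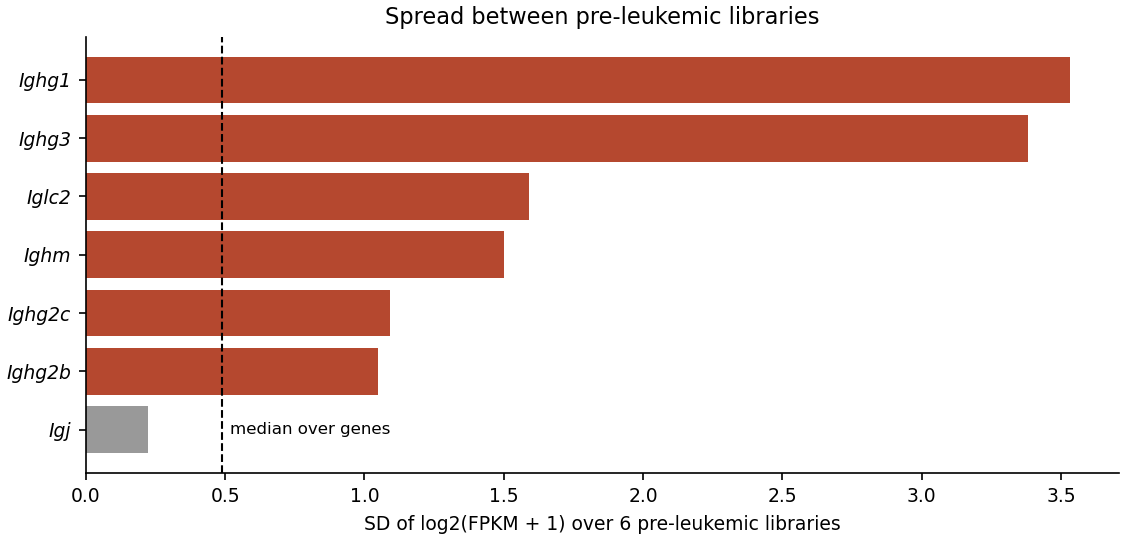
Bars give the SD of log2(FPKM + 1) over the 6 pre-leukemic libraries for 6 constant genes and Igj, and the dashed line is the median SD of 7887 genes (0.49). The constant genes lie above the line, Ighg1 at 3.53 the highest, and Igj lies below it at 0.22. Igkc is left out because of its values of 0.

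Whether heavy chain genes moved together over the 6 pre-leukemic libraries was examined for all 10 pairs of the 5 genes, with two-sided exact permutation tests. Ighg1 was high where Ighg2c was low, with Pearson r = -0.85 (exact permutation p = 0.025, 0.25 after Benjamini-Hochberg adjustment) and Spearman rho = -0.83 (exact permutation p = 0.0583, adjusted 0.583). Without the 2 libraries farthest from the median of Ighg1, r was -0.88. Ighm and Ighg2c had r = 0.78 (exact permutation p = 0.0792, adjusted 0.282). Ighm and Ighg2b had r = 0.73 (exact permutation p = 0.0847, adjusted 0.282), but r = -0.76 without the 2 farthest libraries, so that relation rested on them. By Pearson r 1 pair passed unadjusted and 0 passed after adjustment, and by Spearman rho 0 pairs passed either way.

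The 5 genes whose pattern over the 6 pre-leukemic libraries was most like the summed heavy chain constant genes were Oosp1 (Pearson r = 0.995), Man1b1 (0.983), Lars2 (0.979), Edem1 (0.977) and Fam60a (0.972), out of 7811 genes that are no immunoglobulin gene. Oosp1 stood at 63.0, 84.7, 95.5, 80.4, 21.3 and 63.0 FPKM in pre-leukemic 1 to 6, and Edem1 at 177, 186, 206, 181, 103 and 158 FPKM. Edem1 is also in the list of plasma cell genes used below. All 5 shared their lowest value with the heavy chain sum in pre-leukemic 5, and the coefficients describe 6 libraries with shared depth and scaling. They are the highest of 7811 over so few libraries that unrelated genes can also reach such values, and no test was run.

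Iglc2 was lower in recovered than in healthy libraries. Its level was at 0.793, 0, 0 and 0 FPKM in recovered 1 to 4 and at 33.0, 50 and 29.3 FPKM in healthy 1 to 3. All recovered libraries lay below all healthy ones, as did 10.7% of all genes tested. On log2(FPKM + 1), recovered minus healthy, Iglc2 changed by -5.13 ± 0.87 (SE; limma adjusted p = 0.00704), where 2.51% of all genes passed, 0.518% higher and 1.99% lower. The fitted change depends on the pseudocount, at -7.84 with a pseudocount of 0.1. In estimated reads, 1 was found over the 4 recovered samples and 139 over the 2 healthy samples, a depth-scaled ratio of 0.00432 with an exact 95% interval of 1.09e-04 to 0.0244 that covers counting error only. Without healthy 2, which leaves 1 healthy sample assumed to vary like the other groups, the change was -4.80 with limma adjusted p = 0.146 (range over the alternatives 2.22e-04 to 0.146). The lambda variable sum overlapped between the groups, at 0, 0, 2.59 and 0 FPKM in recovered 1 to 4 and 2.99, 0 and 4.88 FPKM in healthy 1 to 3.

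Ighm changed by 0.82 ± 1.0 (limma adjusted p = 0.764) and Igkc by 0.48 ± 5.48 (limma adjusted p = 1), recovered minus healthy, and neither result shows that the groups were alike. The large error of Igkc comes with a spread shared with the pre-leukemic libraries and their values of 0, and with recovered and healthy libraries alone its limma adjusted p was 0.944. Without recovered 1 the sign of the Igkc change turned, to -0.37. The other 4 genes could not show a difference and get no test. Ighg1, Ighg2c and Ighg3 were at 0 in both groups, and Ighg2b was at no more than about 9 reads in any recovered or healthy library. All 7 genes passed the filter on low values, but without the pre-leukemic libraries only Igkc, Ighm and Iglc2 would have.

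Igll1, which pairs with Vpreb proteins in the receptor of pre-B cells, gives a light chain of another stage. It stood at 27.6, 78.3, 497 and 98.5 FPKM in recovered 1 to 4, at 0 in all 6 pre-leukemic libraries and at 89.6, 87.5 and 88.5 FPKM in healthy 1 to 3. The recovered libraries, low in Iglc2, thus had Igll1 on both sides of the healthy level, and recovered 3 was the highest.

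**Figure D5:**
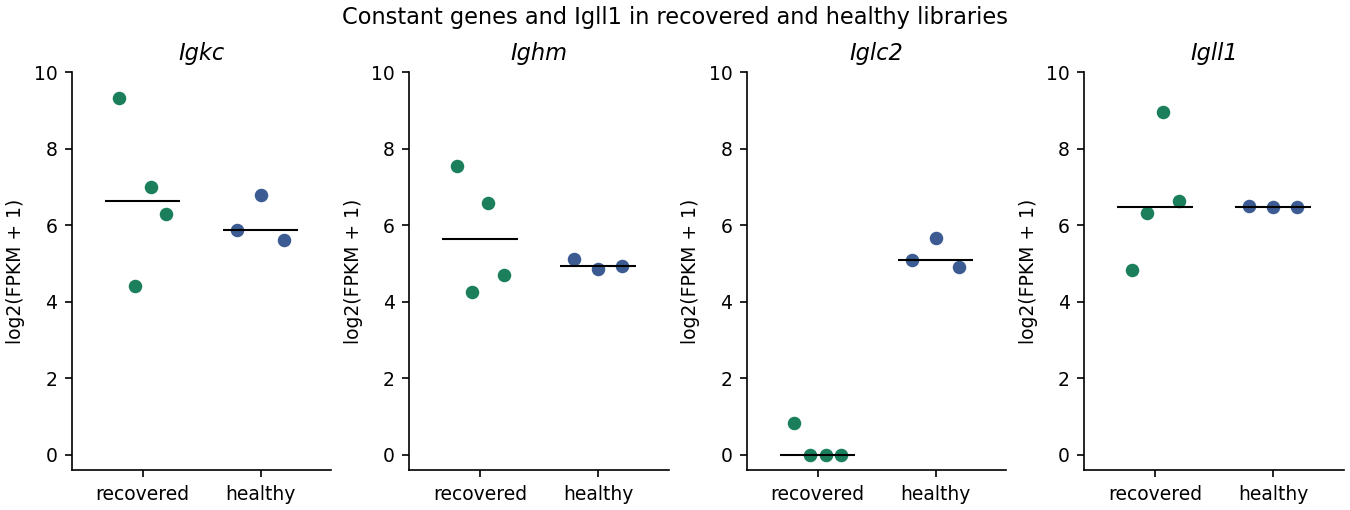
Igkc, Ighm, Iglc2 and Igll1 in 4 recovered and 3 healthy libraries on a log2(FPKM + 1) axis, with 1 point per library and a line at the group median. Only for Iglc2 do the groups not overlap, with at most 0.793 FPKM in recovered and at least 29.3 FPKM in healthy libraries.

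The genes that act with the constant genes were taken from 6 lists, which hold none of the 7 genes. In pre-leukemic minus healthy, 27.3% of all 13118 genes passed, 14.2% higher and 13.1% lower, with a median change of 0.20. In recovered minus pre-leukemic, 40.0% passed, 14.8% higher and 25.1% lower, with a median of -0.41. The split depended on the scaling: on the TPM scale, which sets every library to the same sum, 791 genes rose and 4200 fell in pre-leukemic minus healthy (median -1.08), and 3768 rose and 1213 fell in recovered minus pre-leukemic (median 0.58). These comparisons share the pre-leukemic libraries. Of the 80 tested list genes, 26 would not have passed the filter on low values without those libraries. They were 7 of 20 plasma cell genes, 6 of 19 B cell genes and 1 of 6 pre-B genes. The others were 4 of 18 class switching genes, 6 of 11 signals and 2 of 6 receptor genes. For these genes the filter itself picked high pre-leukemic levels, so their calls and p-values against that group carry no support. Changes below are on log2(FPKM + 1) ± SE with limma adjusted p, and where a group was listed at 0 the level is given in place of a change. Where most libraries of a group were at 0, as for Igj, Derl3, Il10, Fcer1g, Trim21 and Pax5, the size of a change depends on the pseudocount.

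Plasma cell genes were higher in pre-leukemic libraries. Of 20 tested, 18 rose, 0 fell and 2 did not pass in pre-leukemic minus healthy (median 3.92, or 3.83 with genes at 0 in a whole group set to the level of 3 reads). Of the 20, 7 passed the filter only through the pre-leukemic libraries. Tnfrsf17, Igj and Derl3, given next, are among these 7, so their p-values against that group carry no support. Tnfrsf17, the receptor BCMA that keeps plasma cells alive, averaged 333 ± 71.1 FPKM in pre-leukemic samples (n = 6) and was listed at 0 in healthy libraries (limma adjusted p = 6.63e-09). Igj rose by 15.73 ± 0.76 (limma adjusted p = 7.24e-09), from at most 0.263 FPKM in healthy libraries, so the size depends on the pseudocount. Derl3, a protein of the degradation pathway of the endoplasmic reticulum, rose by 7.89 ± 0.45 (limma adjusted p = 5.07e-08).

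Between recovered and pre-leukemic libraries, 0 plasma cell genes rose, 18 of 20 fell and 2 did not pass (median -4.13, also with genes at 0 set to the level of 3 reads). Tnfrsf17 and Derl3 were listed at 0 in all recovered libraries, where pre-leukemic samples averaged 333 ± 71.1 and 339 ± 87.5 FPKM (limma adjusted p = 2.88e-10 and 9.28e-10). Igj fell by 14.85 ± 0.60 on the log2 scale (limma adjusted p = 5.78e-10), and this size too depends on the pseudocount. The p-values of Tnfrsf17, Derl3 and Igj carry no support here either, since the filter picked their high pre-leukemic levels. Prdm1, the transcription factor Blimp-1 of plasma cells, was at 7.74 to 19.2 FPKM in pre-leukemic libraries and listed at 0 in all recovered and healthy ones. The plasma cell genes summed to 530.3 to 933 FPKM in recovered, 48807 to 76405 in pre-leukemic and 535 to 669 in healthy libraries.

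Genes of B cells and their receptor were mixed. In pre-leukemic minus healthy, 9 of 19 tested rose, 1 fell and 9 did not pass (median 1.5). The count of 10 was 5 without healthy 2 and 6 on the TPM scale. Fcrla, an intracellular Fc receptor-like protein of B cells, rose by 3.80 ± 0.66 (limma adjusted p = 6.47e-04), and the adaptor gene Blnk rose by 3.51 ± 0.61 (limma adjusted p = 7.09e-04). Pax5, the factor that holds B cell identity and is switched off in plasma cells, fell by 2.09 ± 0.40 on the log2 scale (limma adjusted p = 0.00129). It stood at 0.593 to 2.70 FPKM in recovered, 0 to 0.272 in pre-leukemic and 2.06 to 4.59 in healthy libraries.

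For recovered minus pre-leukemic, 1 of the 19 B cell genes rose, 11 fell and 7 did not pass (median -1.93). Fcrla changed by -4.45 ± 0.52 (limma adjusted p = 1.25e-05), Tnfrsf13c, the receptor of the B cell survival factor BAFF, by -3.35 ± 0.41 (limma adjusted p = 1.83e-05) and the tetraspanin gene Cd37 by -3.86 ± 0.49 (limma adjusted p = 2.85e-05). Pax5 rose by 1.12 ± 0.31 (limma adjusted p = 0.0109).

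Igll1, Vpreb1 and Vpreb2, which encode the surrogate light chain of the pre-B receptor, fell in pre-leukemic minus healthy. Of 6 tested genes of V(D)J recombination and the pre-B receptor, 1 rose, 3 fell and 2 did not pass in pre-leukemic minus healthy (median -1.74, or -1.30 with genes at 0 set to the level of 3 reads). Igll1 and Vpreb2, listed at 0 in all pre-leukemic libraries, fell (limma adjusted p = 2.68e-05 and 0.00406), and Vpreb1 fell by 5.01 ± 0.83 on the log2 scale (limma adjusted p = 4.63e-04). Il7r, the interleukin 7 receptor of lymphoid precursors and T cells, rose by 5.17 ± 0.69 (limma adjusted p = 8.02e-05). It passed the filter only through the pre-leukemic libraries, so this p-value carries no support. The T cell markers Cd3d, Cd3e, Cd3g, Cd2 and Lck summed to 0.504 to 58.8 FPKM in recovered, 313 to 570.3 in pre-leukemic and 7.42 to 33.1 in healthy libraries, and their part in the Il7r level was not tested.

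Of these 6 genes, 3 rose in recovered minus pre-leukemic, 2 fell and 1 did not pass (median 1.71, or 1.27 with genes at 0 set to the level of 3 reads). Igll1 and Vpreb2 rose (limma adjusted p = 1.09e-06 and 3.01e-04), as did Vpreb1, by 4.55 ± 0.66 (limma adjusted p = 8.26e-05). Il7r changed by -4.49 ± 0.55 (limma adjusted p = 1.81e-05), and this p-value too carries no support. Vpreb3 changed by -1.83 ± 0.52 (limma adjusted p = 0.0122), a call that ended on the TPM scale (0.617, range 3.88e-05 to 0.617). Vpreb1 stood at 13.1, 20.9, 185 and 36.3 FPKM in recovered 1 to 4, with recovered 3 well above the others. Rag1 and Rag2, the recombinase of V(D)J joining, were below the filter and listed at 0 in all 6 pre-leukemic libraries.

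Few genes of class switching and hypermutation changed. In pre-leukemic minus healthy, 2 of 18 tested rose, 1 fell and 15 did not pass (median 0.36). Trp53bp1, a factor of DNA end joining, rose by 1.83 ± 0.59 (limma adjusted p = 0.0321), a call that ended under several alternatives (range 0.00626 to 0.562), among them the TPM scale and leaving out healthy 2. Bcl6, the factor of germinal centre B cells, fell by 2.54 ± 0.48 on the log2 scale (limma adjusted p = 0.00126). On the TPM scale 0 of the 18 rose and 3 fell, with a median of -0.86.

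In recovered minus pre-leukemic, 1 of these 18 rose, 4 fell and 13 did not pass (median -0.67, and 0.08 on the TPM scale). Bcl6 rose by 2.30 ± 0.38 (limma adjusted p = 2.57e-04). Rif1, a partner of Trp53bp1, changed by -1.98 ± 0.51 (limma adjusted p = 0.00737, range 0.00242 to 0.196), the uracil glycosylase gene Ung by -1.13 ± 0.36 (limma adjusted p = 0.0222, range 0.0130 to 0.330) and Trp53bp1 by -1.43 ± 0.46 (limma adjusted p = 0.0243, range 0.0124 to 0.747). The calls of Rif1, Ung and Trp53bp1 ended on the TPM scale and with quantile normalization, that of Ung also without recovered 3 or recovered 4, and that of Trp53bp1 also without pre-leukemic 5 or recovered 2.

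Signals that direct the choice of isotype were mostly higher in pre-leukemic libraries where they changed. In pre-leukemic minus healthy, 5 of 11 tested rose, 1 fell and 5 did not pass (median 1.20). Of the 11, 6 passed the filter only through the pre-leukemic libraries, among them Ifng, Icos, Cd40lg and Il10. The p-values of these genes against that group, given here and below, carry no support. Ifng encodes interferon gamma, which favours switching to the IgG2a class in mice. It stood at 15.2, 24.2, 25.8, 14.7, 28.6 and 8.26 FPKM in pre-leukemic 1 to 6 and was listed at 0 in all recovered and healthy libraries (limma adjusted p = 3.93e-05 for pre-leukemic minus healthy and 2.22e-06 for recovered minus pre-leukemic). Il4, which favours IgG1 and IgE, was at 0, 1.06, 0, 3.4, 0 and 5.23 FPKM in pre-leukemic 1 to 6 and at 0 elsewhere, and is named after its values were seen.

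Icos and Cd40lg, molecules by which T cells help B cells, were at 38.0 to 107 and 2.43 to 16.4 FPKM in pre-leukemic libraries and listed at 0 in all recovered and healthy libraries. For pre-leukemic minus healthy their limma adjusted p was 1.20e-06 and 0.00117, and for recovered minus pre-leukemic 4.83e-08 and 1.03e-04. The cytokine gene Il10 was at 14.1 to 67.4 FPKM in pre-leukemic libraries and at 0 in healthy libraries (limma adjusted p = 3.54e-05), and changed by -4.90 ± 0.49 in recovered minus pre-leukemic (limma adjusted p = 3.08e-06). Il6, a cytokine that supports plasma cells and is made by stromal cells, fell by 5.68 ± 0.80 on the log2 scale in pre-leukemic minus healthy (limma adjusted p = 1.26e-04).

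In recovered minus pre-leukemic 1 of the 11 rose, 5 fell and 5 did not pass (median -1.54). Il6 rose by 5.02 ± 0.63 (limma adjusted p = 2.60e-05). The part of T cell RNA, given above by its markers, in the levels of Ifng, Icos and Cd40lg was not tested.

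Receptors and transporters of antibody went in both directions. In pre-leukemic minus healthy 3 of 6 tested rose, 1 fell and 2 did not pass (median 1.70, or 1.52 with genes at 0 set to the level of 3 reads). Trim21 and Fcgr3 passed the filter only through the pre-leukemic libraries, so their p-values against that group carry no support. Fcgr2b, the inhibitory receptor for IgG, rose by 4.44 ± 0.58 (limma adjusted p = 6.75e-05), Fcer1g, the signalling chain of activating Fc receptors, rose by 4.12 ± 0.66 (limma adjusted p = 3.65e-04), and Trim21, the cytosolic receptor for antibody, was listed at 0 in healthy libraries and rose (limma adjusted p = 0.00509). Fcgrt, the heavy chain of the neonatal Fc receptor that rescues IgG from breakdown, fell by 4.02 ± 0.47 on the log2 scale (limma adjusted p = 2.69e-05). It stood at 44.7 to 129 FPKM in recovered, 2.91 to 6.22 in pre-leukemic and 84.2 to 87.4 in healthy libraries.

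In recovered minus pre-leukemic 1 of the 6 rose, 4 fell and 1 did not pass (median -2.72). The calls of Fcgr3 and Trim21 carry no support here, for the reason given above. Fcgrt rose by 3.72 ± 0.37 (limma adjusted p = 2.96e-06). Fcer1g changed by -6.07 ± 0.52 (limma adjusted p = 7.93e-07), Fcgr2b by -4.17 ± 0.46 (limma adjusted p = 7.16e-06), the activating receptor gene Fcgr3 by -3.64 ± 0.55 (limma adjusted p = 1.23e-04) and Trim21 by -1.79 ± 0.35 (limma adjusted p = 0.00109). The myeloid markers Lyz2, S100a8, S100a9, Itgam and Csf1r summed to 1.80 to 466 FPKM in recovered, 2438 to 10175 in pre-leukemic and 2.23 to 20.3 in healthy libraries, and their part in the Fc receptor levels was not tested.

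In recovered minus healthy, limma called 0 of the 80 tested genes of the 6 lists, where 2.51% of all genes passed. Of these 80, 8 were at 0 in every recovered and healthy library, and 26, these included, would not have passed the filter without the pre-leukemic libraries, so they had little or no room to differ. At an unadjusted p under 0.05, 1 plasma cell gene (Fkbp11) was higher. At that level 1 B cell gene (Pax5), 3 class switching genes (Ung, Rif1 and Prkdc), 1 signal (Stat6) and 2 receptor genes (Fcgr3 and Fcer1g) were lower. In the pre-B list 0 genes reached it. With healthy 1 and 3 as separate libraries 1 plasma cell gene, 2 class switching genes and 1 receptor gene passed. The median change over all genes was -0.08 in this comparison. Over all genes 68 rose and 261 fell, or 48 and 401 on the TPM scale.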

How the data were processed

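The authors deposited 1 table of FPKM values for 13 libraries. Per the submitters' processing notes it was made with bcl2fastq, TopHat, Cufflinks 2.2.1 and Cuffnorm on the mm10 build, and per the labels' protocols libraries were made with the Nextera XT kit after a published reverse transcription. The sources used here do not give the gene annotation or how library sizes were set, a choice that can shift every gene of the immunoglobulin-rich libraries. An entry with no gene name, at 0 throughout, was left out.

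From these values log2(FPKM + 1) was tested with limma 3.58.1 in R 4.3.3 (lmFit, eBayes with trend, two-sided), fitted to the 3 groups together, for 13118 genes that reached 1 FPKM in 3 or more libraries. Calls are at a Benjamini-Hochberg adjusted p under 0.05 over all these genes. Healthy 1 and 3 were averaged, which left 12 samples. Depth came from the smallest steps between the values of 2827 genes that have 1 annotated transcript, 800 bases or longer, is approximate, and covers counting error only.

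The 10 genes, the lists and the tests were chosen with earlier results of these data known. The genes named are the 10, the 3 called genes of each list with the smallest p, every called gene where 5 or fewer were called, and the 5 genes most like the heavy chain sum. Some genes that this rule names are counted in their lists but not reported here. On simulated data with 200 of 13118 genes changed by a log2 of 3, 79% were recovered in recovered minus pre-leukemic (11 unchanged genes called), 57.5% in recovered minus healthy (2) and 68% in pre-leukemic minus healthy (9). Alternatives were other scalings (quantile, the TPM scale, and a fixed sum without immunoglobulin genes), a pseudocount of 0.1, other filters, only the groups compared, separate healthy libraries, a replicate block and leaving out each library. Python 3.11.15 with pandas 2.3.3, scipy 1.17.1 and Biopython 1.88 made the summaries.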

Additional observations from a re-analysis of the deposited data

Results flagged for a closer look

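Single libraries far from the others of their group were looked for in 63 groups of values of 34 genes and of their shares, and 13 stood out by the gap to the nearest other library relative to the group's range. Chance marks about 1 in 20 groups of normally distributed values. Whether FPKM are distributed in that way was not tested, so the rate may be higher here. In 7 of the 13 all other libraries of the group were at 0, so that any value above 0 stands out by construction and that rate does not apply. Recovered 3 was the highest of the 4 recovered libraries for 8 of them. For pre-B and B cell genes it had Igll1 at 497 FPKM (next 98.5), Vpreb1 at 185 (next 36.3), Vpreb3 at 176 (next 31.5) and Blnk at 50.7 (next 11.3). It also had Ighg2b at 2.03, Fcer1g at 2.17, Il10 at 1.01 and Trim21 at 0.466 FPKM, each at 0 in the other recovered libraries. Recovered 1 was alone above 0 with Iglc2 at 0.793 and Igj at 13.9 FPKM.

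Among the pre-leukemic libraries, pre-leukemic 5 held 11.1% of its heavy chain constant FPKM in Ighg1 (next 1.97%) and had the lowest Derl3 at 170.2 FPKM (next 338). Pre-leukemic 4 had Pax5 at 0.272 FPKM with the other 5 at 0. The causes were not tested.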

How the results depend on the processing

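For recovered minus healthy, the call of Iglc2 ended without healthy 2, and leaving out single libraries gave changes from -5.34 to -4.80. The change of Igkc turned to -0.97 with a replicate block and ranged from -0.37 to 1.26 when single libraries were left out. It passed at no setting. With healthy 1 and 3 separate Iglc2 changed by -5.02 (limma adjusted p = 0.00139).

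Counts of called list genes moved by more than 1.5 times as follows. In pre-leukemic minus healthy B cell genes (10) gave 6 on the TPM scale and 5 to 11 without single libraries, and class switching genes (3) gave 5 with only the groups compared. In recovered minus pre-leukemic class switching genes (5) gave 3 on the TPM scale, 3 with a mean of at least 5 FPKM and 2 with quantile normalization. In recovered minus healthy, from 0, class switching genes gave 2 on the TPM scale, 2 with separate healthy libraries and 1 with no filter. There plasma cell genes gave 1 and receptor genes 1 with separate healthy libraries, and plasma cell and pre-B genes each gave 0 to 1 without single libraries, the 1 being without recovered 3.

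Over all genes, recovered minus healthy (329) gave 767 with separate healthy libraries, 122 with a mean of at least 5 FPKM, 103 with only the groups compared, 82 without healthy 2 and 682 without recovered 1. Pre-leukemic minus healthy (3583) gave 1716 without healthy 2. The TPM scale moved the median of pre-leukemic minus healthy from 0.20 to -1.08 (791 higher, 4200 lower, against 1858 and 1725), that of recovered minus pre-leukemic from -0.41 to 0.58 (3768 and 1213, against 1945 and 3299) and that of recovered minus healthy to -0.26 (48 and 401, against 68 and 261). Quantile normalization gave 2350 and 2546 with a median of -0.13 in recovered minus pre-leukemic, and a median of 0.07 in pre-leukemic minus healthy. The causes were not tested.

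Replicate numbers did not pair the libraries: same-numbered libraries of different groups had correlated deviations of -0.019 to 0.034 (10 pairs) and others -0.042 to 0.037 (44 pairs). With the replicate block Iglc2 changed by -5.00 (limma adjusted p = 2.22e-04). Shares and the ratio of Igkc to Iglc2 have no test. Weighting by exon length turned the order of the leading heavy chain genes, to 52.6% for Ighg2b and 33.8% for Ighg2c, and left IgG at 90.2%. The ratio with Iglc1 or Iglc3 added was not run, as neither was analysed here.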
